A study of Mus musculus with 16 samples.

Results

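The Hox genes of the 4 clusters were followed through the accessible chromatin of C2C12 iMyoD1 cells. The members were all protein-coding genes of GENCODE M21 whose symbol starts with Hoxa, Hoxb, Hoxc or Hoxd and a number, 39 of 21938 protein-coding genes. They comprise 11 HoxA genes on chromosome 6, 10 HoxB genes on chromosome 11, 9 HoxC genes on chromosome 15 and 9 HoxD genes on chromosome 2. Peaks were read in a window around each cluster that reached from 50 kb before its first gene to 50 kb after its last gene (mm10). The windows were chr6:52105590-52310880 for HoxA, chr11:96144316-96418256 for HoxB, chr15:102871103-103086852 for HoxC and chr2:74618310-74815142 for HoxD. Overlapping peaks of the 14 libraries used here merged into 92 regions in these windows, of 80290 regions in the whole genome.

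C2C12 is a mouse skeletal myoblast line. All groups carry endogenous MyoD1 and, in a polyclonal pool, an integrated V5-Halo-MyoD1 transgene behind the doxycycline-responsive TRE3G promoter, and no group lacks the transgene. The groups are GM no dox and GM +dox (growth medium, 75000 cells seeded) and DM no dox and DM +dox (serum starvation for 24 h, 300000 cells seeded), with vehicle or doxycycline given for 24 h. Seeding density and medium cannot be told apart. Each group has 4 ATAC-seq libraries labelled as biological replicates; ATAC-seq marks open DNA by transposase insertion. In both DM groups replicate 1 was set aside by the authors as a quality outlier, so 14 libraries enter the comparisons below, and those 2 are given apart. Their lists held 13 Hox peaks of 14236 in DM +dox replicate 1 and 1 of 1287 in DM no dox replicate 1.

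Hox genes encode homeodomain transcription factors that give the body axis and the limbs their regional identity. Within a cluster the genes lie in the order in which they are used along the axis, from anterior (paralogs 1 to 3) through central (4 to 8) to posterior (9 to 13), all or nearly all on one strand. HOX proteins bind DNA with TALE partners of the PBX, MEIS and PKNOX families. Polycomb proteins (EZH2, EED, SUZ12) keep Hox genes silent where they are not in use, and the MLL1 protein of Kmt2a keeps them active. Cells in culture often retain the Hox pattern of the place in the body they came from.

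The lists differed in length and depth. Of the 14 lists the shortest was that of GM no dox replicate 1 and the longest, with 58587 peaks, that of GM +dox replicate 1. The background coverage behind them, solved from the fold enrichments and p-values, lay between 0.339 and 1.13 fragments per base. Each result is therefore given for the full lists and for the strongest peaks of each list, as many as the shortest list holds, ranked by the −log10 p of the peak, with rank 1 the strongest. A promoter peak is a peak of which any part lies within 1 kb of an annotated start site of the gene, and a region without a peak was not detected at the depth of that list. An accessible region in fewer cells and a less accessible region in every cell cannot be told apart in these bulk libraries. As a check of the labelled cell type, the 5 myoblast markers gave no uniform picture. Chrna1 had a promoter peak in all 14 strongest lists, Cdh15 in 3, and Des, Myf5 and Pax7 in 0, while 10 of 12 markers of blood, epithelium, neuron and endothelium had none in any of them (Krt8 and Tubb3 were the exceptions, with 4 and 3 libraries). In the full lists 5 of the 12 had one in at least 1 library, and Ptprc, Cd3e, Spi1, Epcam, Cdh1, Cdh5 and Kdr had none. The 5 were Tubb3 in 11 libraries, Krt8 in 10, Pecam1 in 8, Snap25 in 2 and Rbfox3 in 1. Des, Cdh15, Myf5 and Pax7 had promoter peaks in 13, 10, 6 and 9 full lists, so Tubb3, Krt8 and Pecam1 lay within the range of the myoblast markers. Myod1 itself is no check here, since all 29 peaks within 10 kb of it over the 16 libraries lay inside one of its coding exons, where reads of the transgene cannot be told apart from those of the gene.

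Accessible chromatin was unequal among the clusters. HoxC held most of the strong peaks, HoxA held many weaker ones, HoxB had its lasting peaks beyond its 3′ end, and HoxD was almost without peaks. The sequences below show some of the regions described further on, 100 bases either side of the summit, on the plus strand of GRCm38, the assembly behind mm10. Capitals mark matches, on either strand, to CAGCTG, an E-box hexamer that MyoD1 is known to bind, and to TGANTCA, the AP-1 motif. The first lies beyond Hoxb1 and had a peak among the strongest of all 14 lists, the next pair lie in introns of Hoxc6 and Hoxc4, and the last one, before Hoxb9, had a peak in every GM +dox library and in no GM no dox library. The window in the Hoxc4 intron holds neither motif.
chr11:96413645-96413845, beyond Hoxb1: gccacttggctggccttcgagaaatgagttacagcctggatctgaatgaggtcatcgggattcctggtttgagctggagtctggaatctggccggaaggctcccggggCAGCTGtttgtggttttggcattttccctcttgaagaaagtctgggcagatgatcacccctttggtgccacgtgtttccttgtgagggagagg
chr15:103002252-103002452, Hoxc6 intron: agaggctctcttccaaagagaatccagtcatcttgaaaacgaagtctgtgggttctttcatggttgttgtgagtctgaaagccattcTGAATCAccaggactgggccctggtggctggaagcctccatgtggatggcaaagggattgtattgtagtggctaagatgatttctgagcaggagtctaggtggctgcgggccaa
chr15:103027413-103027613, Hoxc4 intron: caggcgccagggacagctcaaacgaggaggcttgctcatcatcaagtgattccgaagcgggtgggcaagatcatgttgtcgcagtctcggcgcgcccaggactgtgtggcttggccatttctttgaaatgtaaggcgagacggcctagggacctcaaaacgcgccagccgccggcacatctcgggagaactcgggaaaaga
chr11:96260364-96260564, before Hoxb9: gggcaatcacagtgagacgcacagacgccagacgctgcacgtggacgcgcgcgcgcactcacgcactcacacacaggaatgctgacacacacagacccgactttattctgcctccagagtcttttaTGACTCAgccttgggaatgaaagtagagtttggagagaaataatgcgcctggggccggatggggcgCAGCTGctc

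The 4 genes of paralog group 13, the most posterior, set the clusters side by side. Below are the 200 bases before the annotated start of each gene, in its direction of transcription, with CpG dinucleotides in capitals. The Hoxc13 promoter had a peak in all 14 full lists, Hoxa13 in 11, Hoxb13 in 5 and Hoxd13 in none. CpG content did not follow that order, with 33 CpG in the Hoxa13 stretch, 28 in Hoxd13, 12 in Hoxc13 and 11 in Hoxb13.
Hoxa13, minus strand, chr6:52260881-52261080: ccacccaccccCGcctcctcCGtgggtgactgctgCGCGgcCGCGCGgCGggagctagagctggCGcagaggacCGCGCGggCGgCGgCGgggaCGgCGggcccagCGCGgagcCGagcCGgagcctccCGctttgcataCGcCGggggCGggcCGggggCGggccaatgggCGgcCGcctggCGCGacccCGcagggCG
Hoxb13, plus strand, chr11:96194116-96194315: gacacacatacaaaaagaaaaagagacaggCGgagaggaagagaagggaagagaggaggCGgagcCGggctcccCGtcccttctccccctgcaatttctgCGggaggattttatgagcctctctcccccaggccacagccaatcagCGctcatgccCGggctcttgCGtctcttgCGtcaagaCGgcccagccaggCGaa
Hoxc13, plus strand, chr15:102920903-102921102: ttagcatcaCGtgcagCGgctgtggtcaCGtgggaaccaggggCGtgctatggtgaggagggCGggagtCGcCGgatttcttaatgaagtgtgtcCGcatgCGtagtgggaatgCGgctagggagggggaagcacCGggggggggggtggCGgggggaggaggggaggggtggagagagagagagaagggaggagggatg
Hoxd13, plus strand, chr2:74668110-74668309: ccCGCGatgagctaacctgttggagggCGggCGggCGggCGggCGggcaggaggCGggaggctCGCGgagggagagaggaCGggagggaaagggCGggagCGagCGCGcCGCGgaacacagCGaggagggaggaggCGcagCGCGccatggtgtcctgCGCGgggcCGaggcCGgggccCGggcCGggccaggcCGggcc

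The first question was how many peaks each cluster held. In the strongest lists the HoxC window had 4 to 8 peaks per library, the HoxA window 0 to 5, the HoxB window 1 or 2, and the HoxD window 1 peak in GM no dox replicate 1 and 0 in the other 13 libraries. Per 100 kb these were 2.81 ± 0.497 for HoxC, 1.25 ± 0.625 for HoxA, 0.443 ± 0.155 for HoxB and 0.0363 ± 0.136 for HoxD (mean ± SD, n = 14). HoxC exceeded HoxB and HoxD in 14 of 14 libraries and HoxA in 13 of 14, GM and DM, with and without doxycycline. All 6 pairs of clusters differed by more than the spread between libraries in a two-sided exact sign-flip permutation test over the 14 libraries (adjusted p = 0.000244 to 0.0011, Benjamini-Hochberg over 6 pairs). The smallest difference was that of HoxB and HoxD, 0.407 peaks per 100 kb, and it came to 0 when the flanks were left out, because neither cluster had a strong peak between its first and its last gene.

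**Figure D1:**
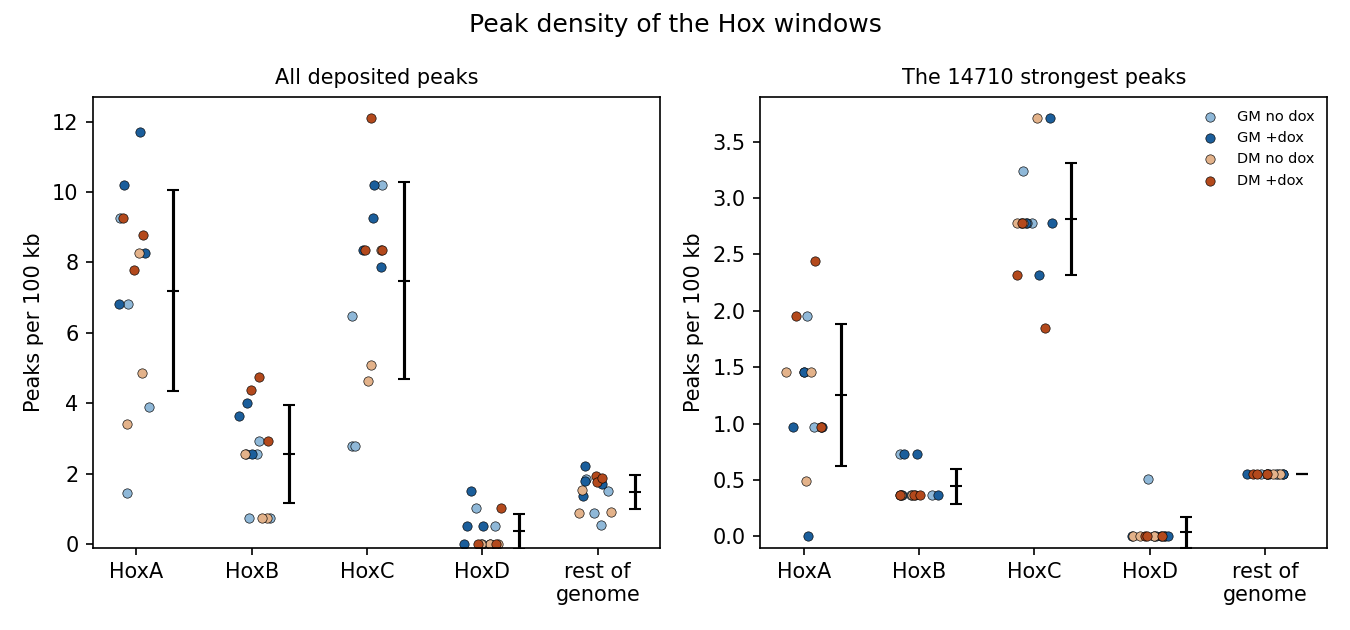
Peaks per 100 kb in the window of each Hox cluster and in the rest of the genome, in all deposited peaks (left) and in the strongest lists (right); a point is 1 library coloured by group, and the bars beside the points give the mean ± SD over 14 libraries. In the strongest lists HoxC averaged 2.81 and HoxD 0.0363 peaks per 100 kb, against 0.555 in the rest of the genome.

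The order of HoxA and HoxC depended on how deep the lists were read. In the full lists HoxA had 7.2 ± 2.87 and HoxC 7.48 ± 2.79 peaks per 100 kb (mean ± SD, n = 14), a difference of -0.28 that did not exceed the spread between libraries (exact sign-flip permutation test, adjusted p = 0.448). HoxA peaks were the weaker ones. With the strongest lists cut to 50% of their length, the difference of HoxA from HoxB was -0.304 peaks per 100 kb, HoxB then being the denser (exact sign-flip permutation test, adjusted p = 0.000586), and its difference from HoxD was 0.0348 (adjusted p = 1). With lists ranked by fold enrichment, HoxA and HoxB differed by 0.0351 peaks per 100 kb (exact sign-flip permutation test, adjusted p = 0.679). HoxB had 2.56 ± 1.39 and HoxD 0.363 ± 0.505 peaks per 100 kb in the full lists.

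Taken as 1 set, the Hox windows held 7 to 12 peaks per library in the strongest lists, 1.11 ± 0.178 per 100 kb, against 0.555 in the rest of the genome (mean ± SD, n = 14), and were denser in 14 of 14 libraries (two-sided exact sign-flip permutation test, p = 0.000122, the smallest that 14 libraries allow). The rest of the genome includes long stretches without genes. The excess lay among the weaker of these peaks, since it was 0.0586 per 100 kb in the lists cut to 50% (exact sign-flip permutation test, p = 0.107) and 0.0131 with lists ranked by fold enrichment (p = 0.863). In the full lists the Hox windows had 4.33 ± 1.73 peaks per 100 kb and the rest of the genome 1.48 ± 0.493.

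Few Hox regions were open in every library. Of the 92 regions 7 had a peak in all 14 full lists (7.61%), against 13.8% of the 80198 regions elsewhere, and 24 had a peak in 1 library only (26.1% against 23.5%). The 7 were 4 in HoxC, 2 in HoxB and 1 in HoxA. One region, beyond Hoxb1, was in all 14 strongest lists (1.09% of the Hox regions against 7.57% elsewhere). By place, 12 of 27 HoxA regions, 7 of 27 HoxB regions, 10 of 34 HoxC regions and 2 of 4 HoxD regions had their summit within 1 kb of a Hox start site. HoxC had 14 of its 34 summits in introns, against 6 of 27 in HoxA, 5 of 27 in HoxB and 1 of 4 in HoxD. These counts depend on the gene models. The long model of Hoxc5 spans Hoxc6, Hoxc8 and Hoxc9, and that of Hoxa3 spans Hoxa4, Hoxa5 and Hoxa6. Among the intronic HoxC summits are therefore those 18 bp before a Hoxc6 start site and 458 bp before a Hoxc9 start site.

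**Figure D2:**
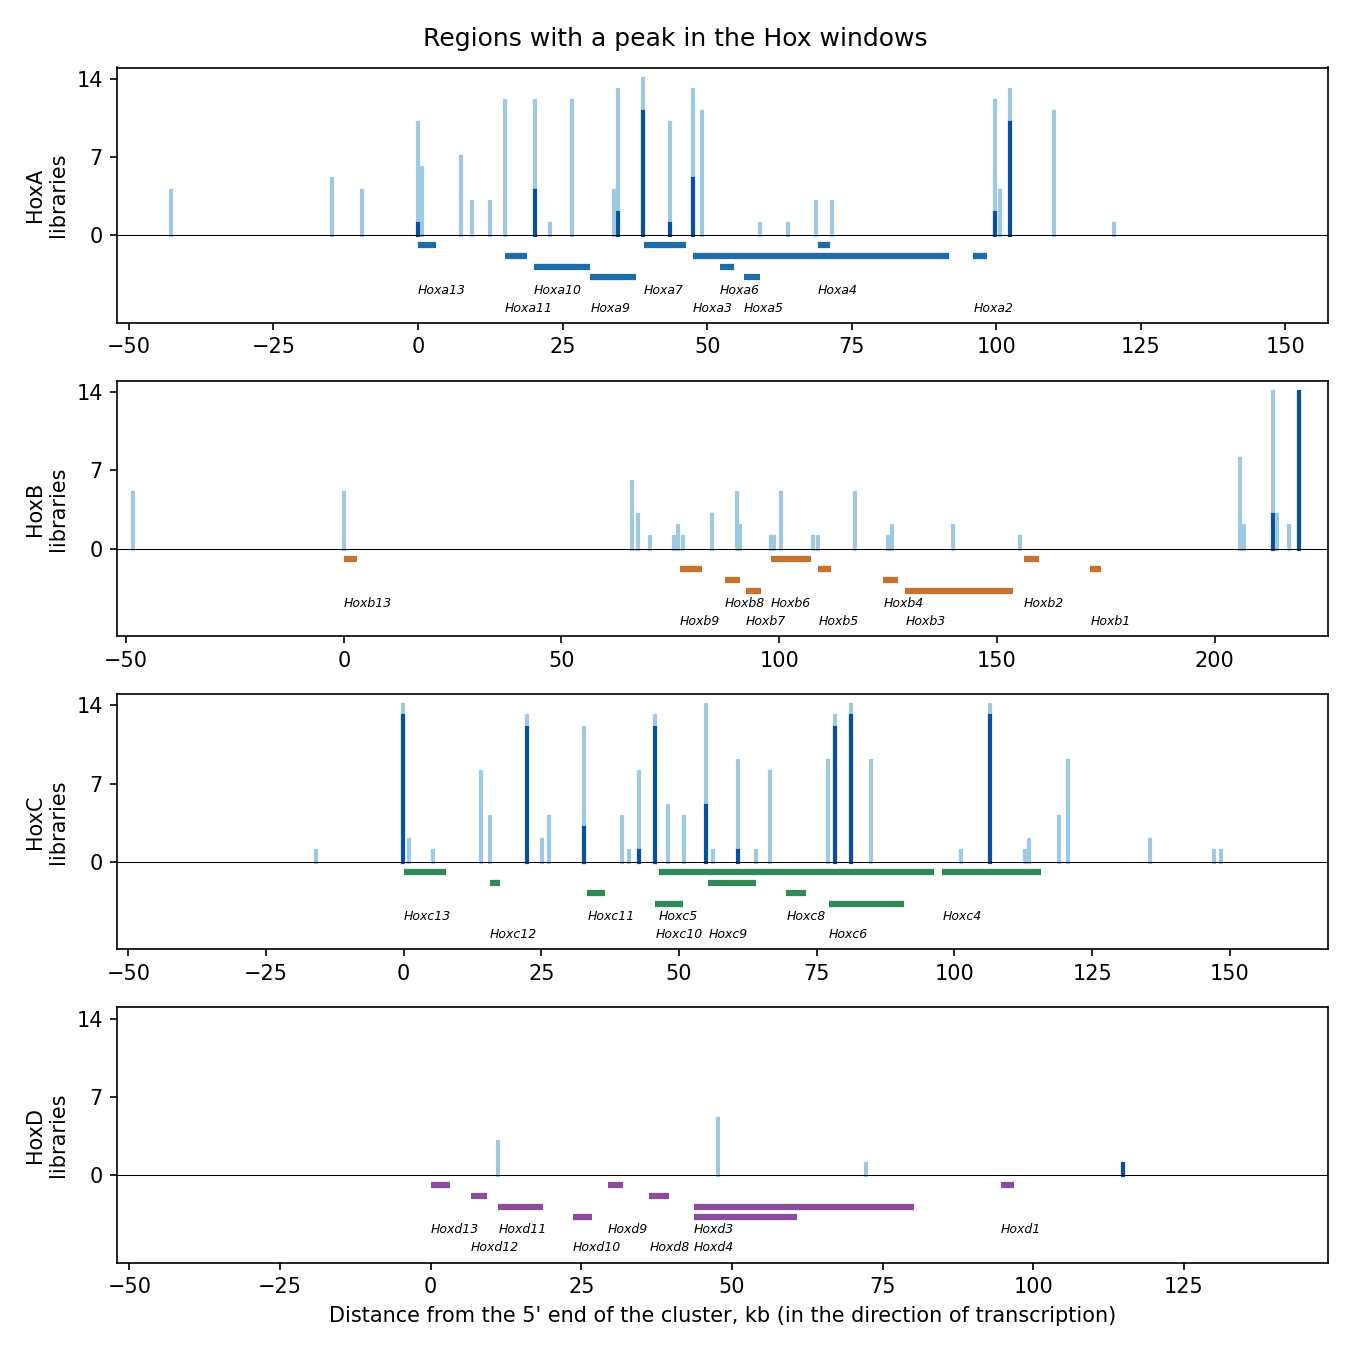
Regions with a peak along the 4 Hox windows, by distance of the summit from the 5′ end of the cluster in kb; the height of a line is the number of the 14 libraries with a peak (light blue, all deposited peaks; dark blue, the strongest lists), and coloured bars below are gene models. HoxD shows 4 regions, none in more than 5 libraries, and the tall lines of HoxB lie beyond Hoxb1.

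HoxC was led by the promoter of Hoxc13, a posterior gene known for its part in hair and nail. Its region, chr15:102920629-102921594, had its summit 148 bp before the start site. It ranked 9921, 3480, 3829 and 2692 in GM no dox replicates 1 to 4 and 16389, 3909, 2018 and 719 in GM +dox replicates 1 to 4. In DM it ranked 2572, 823 and 1142 without doxycycline and 1760, 575 and 1796 with it (replicates 2 to 4). All 6 DM libraries stood at rank 2572 or better, and the weakest values were those of replicate 1 in both GM groups. DM no dox and GM no dox did not overlap, DM no dox having the higher ranks, and the same held when each list was ranked by fold enrichment. Between DM +dox and GM +dox the ranks overlapped. The fold enrichment at this region was 4.83, 16.5, 9.53 and 15.2 in GM no dox and 13.3, 14.7 and 16.9 in DM no dox, values that overlap where the ranks do not.

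Inside HoxC 3 regions with an intronic summit had a peak in every library, one of them at the Hoxc9 promoter. The region chr15:103027286-103028237 lies in an intron of Hoxc4, a central gene, 6882 bp before its nearest start site. Its ranks were 5362, 6097, 2505 and 5104 in GM no dox, 3366, 9326, 8430 and 9690 in GM +dox, 7275, 8148 and 4337 in DM no dox, and 17998, 11345 and 9464 in DM +dox. Every DM +dox library ranked it lower than every DM no dox library, also by fold enrichment. The fold enrichments themselves overlapped, with 13.9, 15 and 15.8 in DM +dox and 10.9, 9.59 and 18.4 in DM no dox, and the DM +dox lists were the longer ones. The region chr15:103002069-103003054, in an intron of Hoxc6 and of the longer gene model of Hoxc5, 1823 bp after a start site of that gene, ranked between 4253 (GM no dox replicate 3) and 16883 (DM +dox replicate 3), and its groups overlapped. The sequences printed above hold 16 CpG in the 201 bases of the Hoxc4 intron and 2 in those of the Hoxc6 intron.

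The Hoxc9 promoter went the other way from Hoxc13. Hoxc9 is a posterior gene of the trunk and limb levels, and its region, chr15:102975656-102976798, has its summit 458 bp before a start site and inside the long gene model of Hoxc5. It ranked 8507, 12852, 7754 and 18403 in GM no dox, 9300, 16964, 13186 and 15752 in GM +dox, 23661, 20122 and 22014 in DM no dox, and 14715, 18566 and 16678 in DM +dox. DM no dox ranked lower than GM no dox without overlap, and DM +dox ranked higher than DM no dox without overlap. Neither difference was free of overlap when peaks were ranked by fold enrichment. The fold enrichments themselves were 11.9, 8.45 and 8.34 in DM +dox and 3.02, 5.33 and 6.79 in DM no dox, without overlap. In GM no dox they were 4.82, 10.1, 7.22 and 6.89, which overlapped those of DM no dox. DM +dox replicate 2 missed the strongest list by 5 places.

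The other HoxC promoters with strong peaks were those of Hoxc10, Hoxc6 and Hoxc11. The Hoxc10 region (chr15:102966455-102967209) had a peak in 13 full lists, missing from GM no dox replicate 1, and in 12 strongest lists, with ranks from 6763 to 22615. Hoxc5 counts through the same region, because the first start site of its gene model lies within 1 kb of it, so its values are not separate evidence. Hoxc6 had a peak in 12 full and 10 strongest lists, and Hoxc11 in 12 full and 3 strongest lists. The strong peaks of Hoxc6 belonged to chr15:102998850-103000198, whose summit lay in an intron, 1095 bp after a start site. They counted where an edge of the peak came within 1 kb of a start site. That region was in 13 full and 12 strongest lists. The region with its summit 18 bp before a Hoxc6 start site, chr15:102998014-102998299, was in 9 full and 0 strongest lists. Hoxc12 and Hoxc4 had promoter peaks in 4 and 3 full lists. Hoxc8 had none in any of the 14, although its neighbours on both sides did.

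HoxA promoters with frequent peaks included Hoxa3, Hoxa7 and the 4 posterior genes. Hoxa7, a central gene, had a promoter peak in all 14 full lists and 11 strongest lists, at chr6:52221503-52222406. It ranked 12365, 14250, 13573 and 10926 in GM no dox, 17189, 10899, 18212 and 11303 in GM +dox, 13271, 16192 and 10482 in DM no dox, and 11699, 11197 and 11519 in DM +dox, so that all 4 groups overlapped. Hoxa9, Hoxa10, Hoxa11 and Hoxa13, the posterior genes, had one in 13, 12, 12 and 11 full lists but in 2, 4, 0 and 1 strongest lists. Hoxa2, Hoxa5 and Hoxa6 had none in any library and Hoxa4 had one in 3. Hoxa3 counted in 13 full and 5 strongest lists, through its most upstream start site, which lies between Hoxa7 and Hoxa6. The summit there, 73 bp before the Hoxa3 start, is also 70 bp before a start site of the gene model Gm28308, so the peak cannot be assigned to Hoxa3 alone.

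HoxB differed from HoxA and HoxC in where its peaks lay. None of its 10 promoters had a peak in any of the 14 strongest lists, and 5 of the 10 had none in any full list (Hoxb1, Hoxb3, Hoxb4, Hoxb7 and Hoxb8). The most frequent was Hoxb13, in 5 of 14 full lists. The steady peaks were both in the flank beyond Hoxb1, the anterior end. The region chr11:96413475-96414280, intergenic and 47487 bp after the Hoxb1 start site, ranked 4745, 3803, 3661 and 5112 in GM no dox, 7298, 2668, 9254 and 6052 in GM +dox, 2368, 1600 and 4323 in DM no dox, and 2093, 2762 and 3187 in DM +dox. It was the only one of the 92 regions in all 14 strongest lists, and its ranks by −log10 p overlapped in all 4 comparisons of groups. Ranked by fold enrichment, it stood higher in DM +dox than in GM +dox without overlap. The second, chr11:96407652-96408508, was in all 14 full lists and in 3 strongest lists, with ranks from 8640 to 27164. Both have a CAGCTG within 100 bases of the summit.

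**Figure D3:**
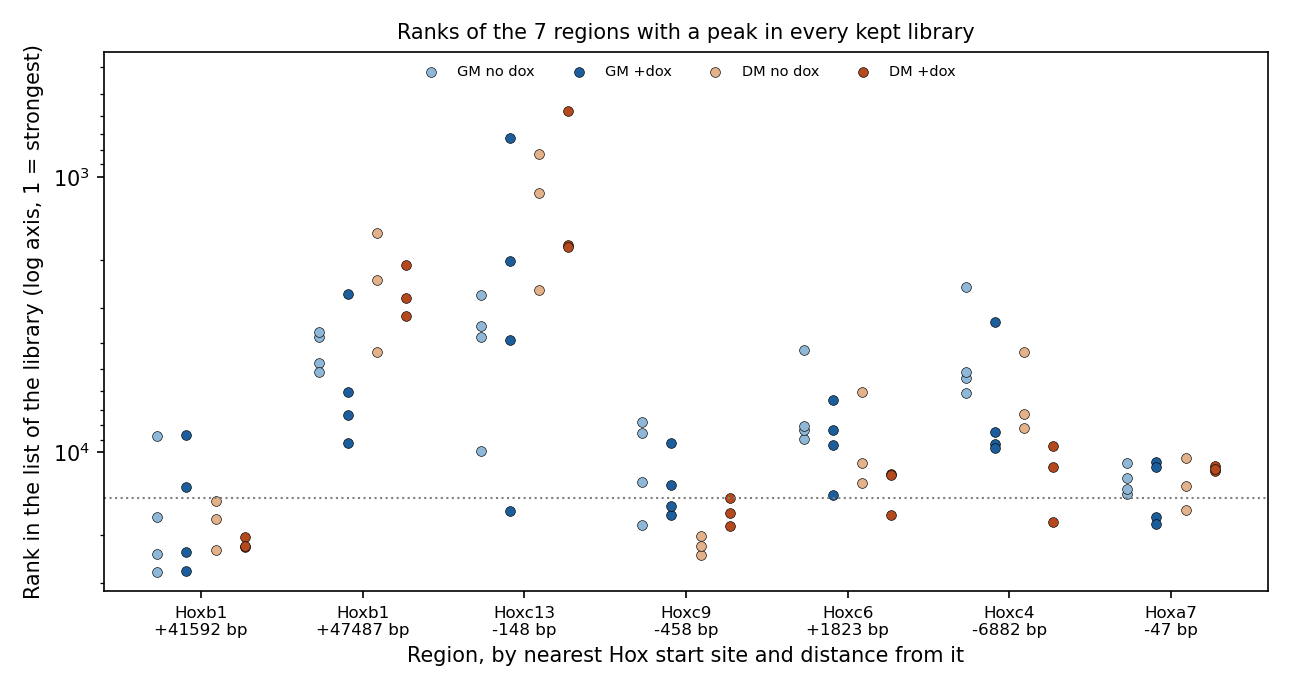
Rank of the 7 Hox regions that had a peak in every kept library, on a log axis with the strongest rank at the top; a point is 1 library coloured by group, and the dotted line marks the end of the strongest lists. Hoxc13 reached rank 575 in DM +dox, the region 47487 bp after Hoxb1 lay above the line in all 14 libraries, and Hoxc9 lay below it in all 6 DM libraries.

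HoxD had the fewest peaks of the 4 clusters. Its window held 0 to 3 peaks per library in the full lists, in 4 regions, and 8 of the 14 libraries had none. Of 9 promoters, 7 had no peak in any library (Hoxd1, Hoxd4, Hoxd8, Hoxd9, Hoxd10, Hoxd12 and Hoxd13), Hoxd11 had one in 3 and Hoxd3 in 1. The most frequent region, chr2:74715849-74716232, 4066 bp after a Hoxd4 start site, was in 5 libraries, 3 of them GM +dox, at ranks of 30724 to 42044. The single strong peak, chr2:74783160-74783353 in GM no dox replicate 1, had rank 13570 and no counterpart in another library. Evx2, the homeobox gene next to Hoxd13, and Evx1, next to Hoxa13, had no promoter peak in any library.

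Over all 39 promoters, no gene had a peak in all 14 strongest lists, against 18.7% of the 21938 protein-coding genes. This count turned on single libraries. Without GM +dox replicate 1 it was 1 (Hoxc13) against 20.0% of all genes, and without replicate 1 of both GM groups it was 3 (Hoxc13, Hoxc10 and, through the Hoxc10 start, Hoxc5) against 23.1%. At the other end 16 of 39 had no peak in any full list (41.0%), near the 40.2% of all genes. By cluster those were 7 of 9 in HoxD, 5 of 10 in HoxB, 3 of 11 in HoxA and 1 of 9 in HoxC. By place in the clusters, 12 of 16 posterior, 7 of 15 central and 4 of 8 anterior genes had a peak in at least 1 full list.

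**Figure D4:**
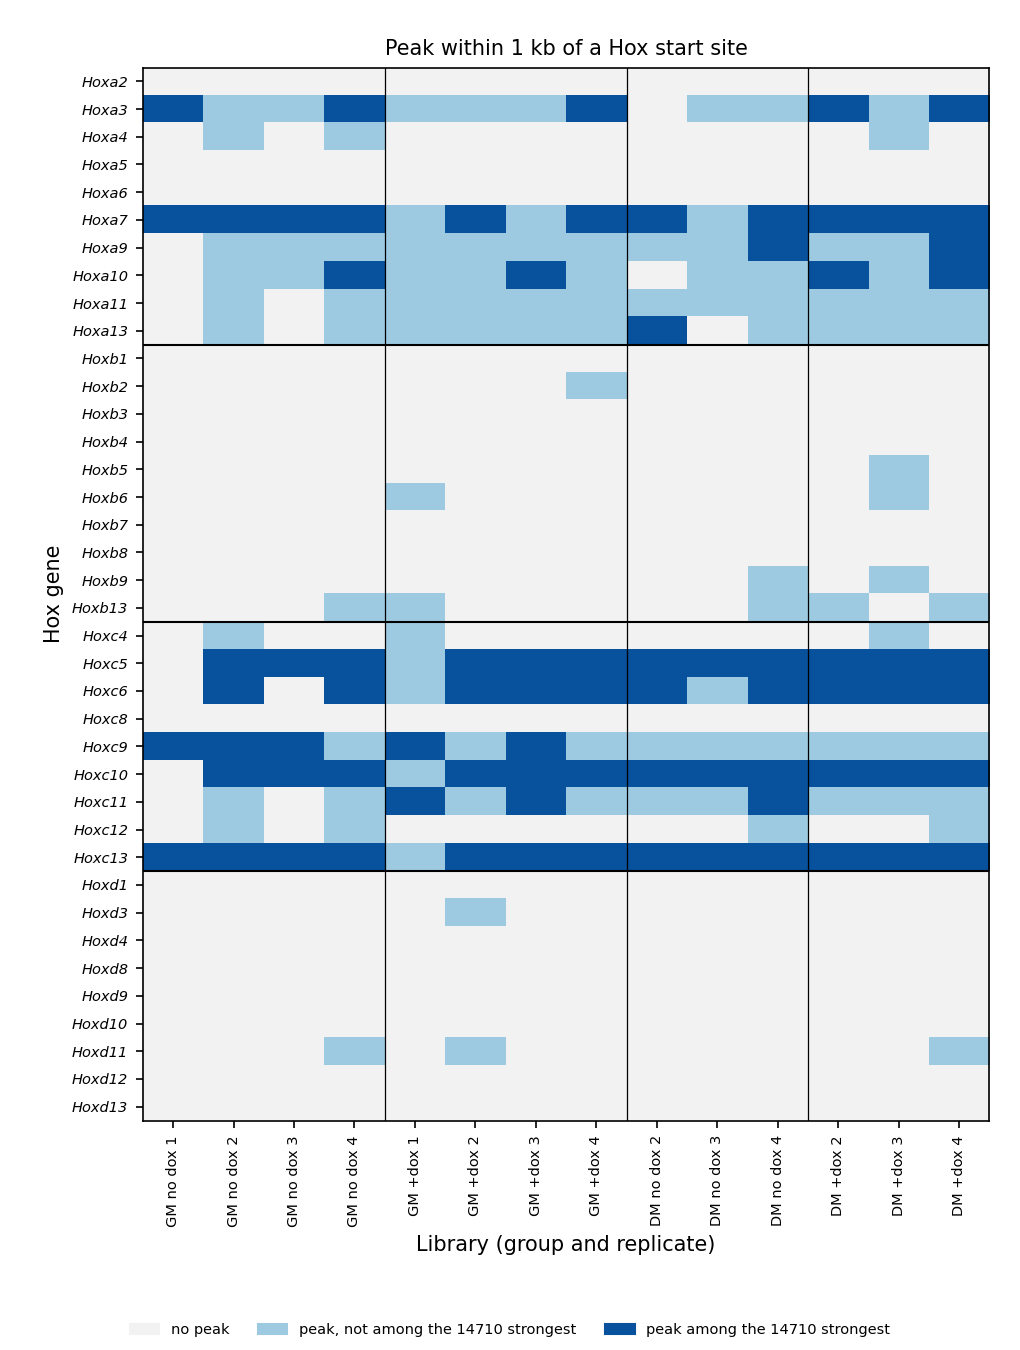
Peaks within 1 kb of an annotated start site of the Hox genes reported by name in the 14 libraries, as no peak (grey), a peak outside the strongest list (light blue) or a peak among them (dark blue). No row is dark in all 14 libraries, Hoxc13 is dark in 13, and 7 of the 9 HoxD rows are empty.

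The promoters were also read by base composition, as counts without a test. From 250 bases before to 50 after the start sites, the median GC content was 55.3% for the 39 Hox genes and 54.3% for the 21899 other genes, and the median observed to expected CpG ratio was 0.619 and 0.441. A CpG-rich promoter, defined as at least 55% GC and a ratio of at least 0.65, was found in 13 Hox genes. Of these 13, 0 had a peak in all 14 strongest lists, which follows from the 0 among all 39 and turned on single libraries. In at least 1 strongest list 4 had a peak (30.8%, against 76.3% of other genes with such a promoter), and 6 had none in any full list (46.2%). Of the 5912 other genes with such a promoter, 34.9% had a peak in all 14 strongest lists and 11.9% had none in any full list. The 6 without a peak were Hoxd1, Hoxd8, Hoxd10, Hoxd13, Hoxa5 and Hoxa6, so that all 4 CpG-rich HoxD promoters were among them. GC content and CpG ratio are computed from the genome and say nothing of methylation in these cells.

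Within 100 bases of the summit CAGCTG occurred in 12 of the 92 Hox regions, against 19.6% of the other regions. It was in 6 of 27 regions in HoxB, 5 of 27 in HoxA, 1 of 4 in HoxD and 0 of 34 in HoxC. TGANTCA occurred in 16 Hox regions (17.4% against 31.4%). TGATTNAT, the composite HOX-PBX motif, occurred in 3 (3.26% against 4.89%), and the CTCF consensus, the motif of an insulator protein, in 0 (2.73% elsewhere). The 2 sets differed in place, with 33.7% of the Hox regions and 19.2% of the other regions within 1 kb of a start site. Among the other regions within 1 kb of a coding start site, CAGCTG occurred in 14.3% and TGANTCA in 10.2%. TGATTNAT occurred there in 1.22% and the CTCF consensus in 1.59%. Whether the motif shares differ between regions matched for place was not tested. The motifs are letters in a fixed window, and their absence says nothing about binding.

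Doxycycline, which induces the MyoD1 transgene, was compared with vehicle in each medium. In the strongest lists GM +dox had 7, 10, 11 and 10 Hox peaks and GM no dox 12, 10, 9 and 11, and the groups overlapped. The means were 9.5 ± 1.73 and 10.5 ± 1.29 (SD, n = 4 each; two-sided exact permutation test, p = 0.571, adjusted p = 1 over 4 comparisons). In DM the counts were 9, 8 and 12 with and 10, 8 and 12 without doxycycline, again with overlap (9.67 ± 2.08 and 10 ± 2, n = 3 each; exact permutation test, p = 1, where 3 against 3 cannot go below 0.1). The difference of the doxycycline effect between media was 0.667 peaks (exact permutation of the medium within each doxycycline arm, p = 0.748). Hox promoters with a peak numbered 5.5 ± 2.52 and 6.25 ± 1.71 in GM +dox and GM no dox (n = 4 each; exact permutation test, adjusted p = 0.99) and 7.33 ± 1.53 and 6.33 ± 2.08 in DM +dox and DM no dox (n = 3 each; exact permutation test, adjusted p = 0.99).

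**Figure D5:**
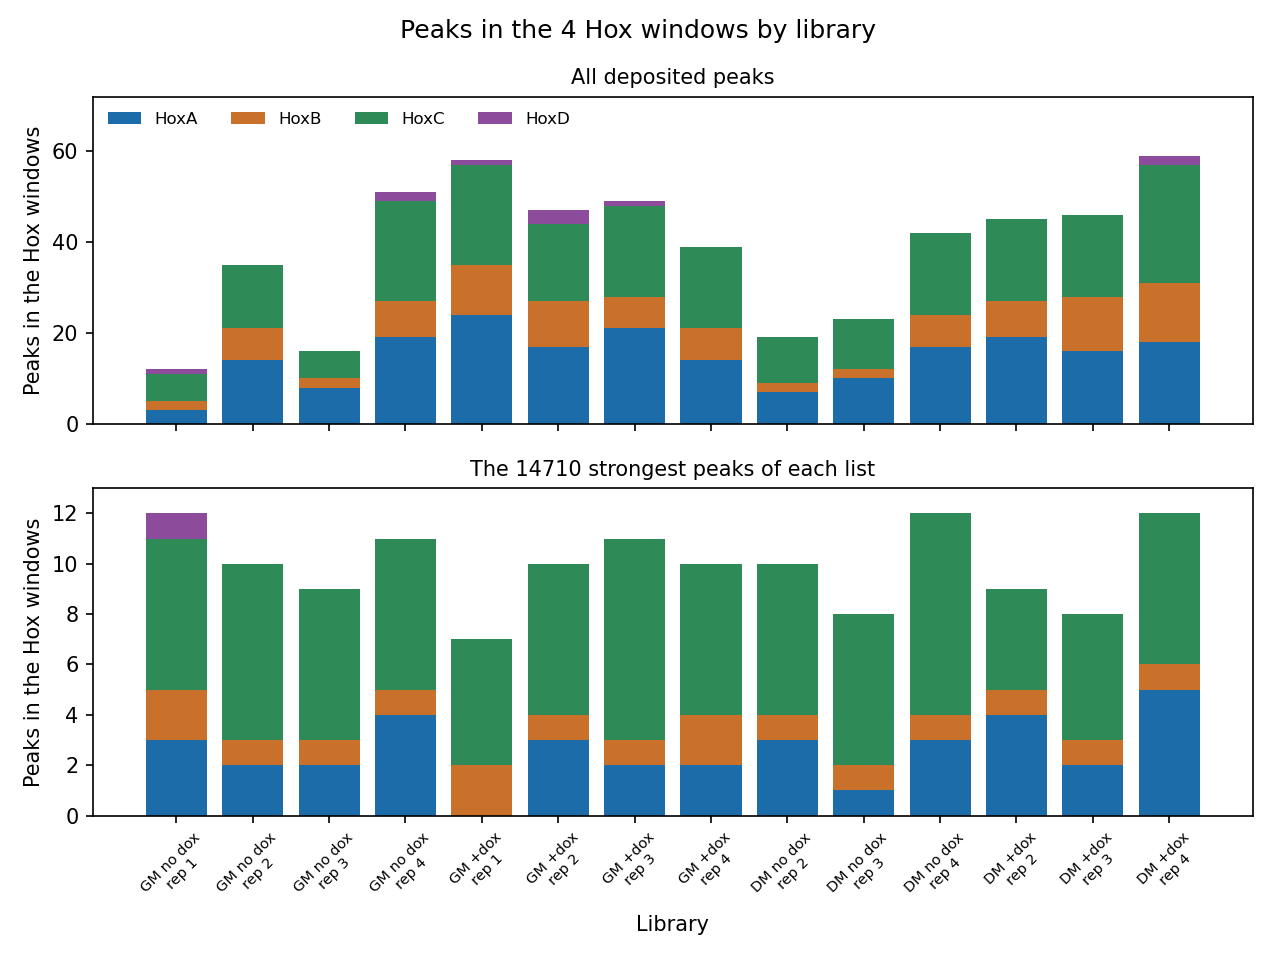
Number of peaks in the 4 Hox windows in each of the 14 libraries, stacked by cluster, in all deposited peaks (top) and in the strongest lists (bottom). The full lists give 12 to 59 peaks per library and the strongest lists 7 to 12, with HoxC the largest share in each strongest list of the GM groups.

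In the full lists the mean number of Hox peaks was 48.2 ± 7.8 in GM +dox against 28.5 ± 18 in GM no dox, and 50 ± 7.81 in DM +dox against 28 ± 12.3 in DM no dox (SD, n = 4 each in GM and 3 each in DM). GM +dox had 58, 47, 49 and 39, GM no dox 12, 35, 16 and 51, DM +dox 45, 46 and 59, and DM no dox 19, 23 and 42. In DM the groups did not overlap, and in GM they did. On the log2(number + 1) scale the differences were 0.944 in GM (exact permutation test, p = 0.114, adjusted p = 0.229, n = 4 each) and 0.884 in DM (exact permutation test, p = 0.1, the smallest that 3 against 3 allow, adjusted p = 0.229). Neither passed the threshold. The lists themselves were longer with doxycycline in DM, 46241 to 51340 peaks in DM +dox and 23690 to 40599 in DM no dox. Per 10000 peaks of a list the Hox windows held 10.2 ± 1.58 peaks in DM +dox and 9.28 ± 1.16 in DM no dox (n = 3 each; exact permutation test, p = 0.5), and 10.4 ± 0.512 in GM +dox and 8.55 ± 1.4 in GM no dox (n = 4 each; exact permutation test, p = 0.0857). Within replicate numbers 1 and 2 the GM difference was 1.3 and within 3 and 4 it was 0.589 on the log2 scale. In DM the value within 3 and 4 was 0.725, and replicate 2 alone, 1 library against 1, gave 1.2.

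The change from GM to DM in Hox totals was smaller than the spread between libraries. Without doxycycline the strongest lists held 10 ± 2 peaks in DM (n = 3) and 10.5 ± 1.29 in GM (n = 4; exact permutation test, adjusted p = 1), and with doxycycline 9.67 ± 2.08 and 9.5 ± 1.73 (n = 3 and 4; exact permutation test, adjusted p = 1). In the full lists the differences were 0.113 without and 0.0533 with doxycycline on the log2(number + 1) scale (exact permutation test, adjusted p = 0.886 for both). Promoters with a peak numbered 6.33 ± 2.08 in DM no dox and 7.33 ± 1.53 in DM +dox in the strongest lists, against 6.25 ± 1.71 and 5.5 ± 2.52 in the GM groups (exact permutation tests, adjusted p = 1 without and 0.99 with doxycycline, n = 3 and 4).

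The comparisons were also read region by region. A region was called all-or-none when every library of one group and no library of the other had a peak in it. In the strongest lists no Hox region was called in any comparison, of 16 to 20 with a peak. The shares of all regions called were 0.287% for doxycycline in GM, 1.61% for doxycycline in DM, 2.03% for differentiation without doxycycline and 2.21% with it. The largest differences in share were at the Hoxc9 promoter, in 3 of 4 GM no dox and 0 of 3 DM no dox lists, and in DM at the Hoxa3 start and the Hoxa10 promoter, each in 2 of 3 DM +dox and 0 of 3 DM no dox lists. At Hoxc11 2 of 4 GM +dox and 0 of 4 GM no dox lists had the peak, and at Hoxa7 2 of 4 and 4 of 4.

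In the full lists 6 all-or-none calls fell in the Hox windows, all of them toward doxycycline or differentiation. Nearly all calls of the genome went the same way for doxycycline (310 higher and 0 lower in GM, 3410 and 9 in DM), and every DM +dox list was longer than every DM no dox list. For doxycycline in GM 1 of 74 Hox regions was called, against 0.446% of all regions. It was chr11:96260367-96260666, intergenic, 10993 bp before Hoxb9, with ranks of 34238, 21870, 23521 and 24829 in GM +dox, no peak in the 4 GM no dox libraries, a peak in 2 of 3 DM +dox libraries and none in DM no dox. For doxycycline in DM 4 of 73 were called (5.48%), against 5.39% of all regions, which is the background share. They lay 48496 bp before Hoxb13 (chr11:96145728-96146060), 3557 bp before a Hoxc6 start site (chr15:103005525-103006096), 5658 bp after a Hoxc4 start site (chr15:103039763-103040384) and 42753 bp before Hoxa13 (chr6:52303474-52303777). The first and the last lay in the flanks, nearer to other genes. Their nearest coding start sites were those of Ttll6, at 11601 bp, and of Evx1, at -9865 bp (minus for before the start). For differentiation without doxycycline 0 of 60 were called, against 0.411%. With doxycycline 1 of 89 was called, again the region before Hoxa13, against 1.81%, and GM no dox replicate 4 had a peak there too.

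At the 7 regions with a peak in every list the ranks of 2 groups were compared for overlap. A rank is a place in the list of its own library, not a level. For doxycycline in GM 0 of 7 were free of overlap, against 3.01% of the 11046 such regions genome-wide. For doxycycline in DM there were 2, the Hoxc9 promoter ranked higher and the Hoxc4 intron lower, against 12.9% (492 regions higher and 929 lower genome-wide). Ranked by fold enrichment there were 3, all lower, the Hoxc4 and Hoxc6 introns and the Hoxa7 promoter. No genome-wide share is given here for ranks by fold enrichment, so these counts cannot be set against a background. For differentiation without doxycycline there were 2, the Hoxc13 promoter ranked higher and the Hoxc9 promoter lower, against 11.3% (468 higher and 783 lower). For differentiation with doxycycline there were 0, against 13.3%, while by fold enrichment the region 47487 bp after Hoxb1 ranked higher without overlap. Within the 3 pairs of same-numbered libraries of that comparison, the region 47487 bp after Hoxb1 ranked higher in DM every time and the Hoxc6 intron lower every time, 2 of 7 regions against 44.4% of all regions that moved one way in all 3 pairs. A count of 2 among 7 regions was not tested against these shares.

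Other genes of the Hox system were read at their promoters in the same way. Among the TALE cofactors reported here, Pbx4 and Pknox1 had a promoter peak in all 14 strongest lists, Meis1 in 12, Pbx3 and Meis2 in 11 each, Pknox2 in 2, Meis3 in 1 and Pbx2 in 0, and each of these had one in at least 9 full lists. Among chromatin regulators Ezh2 and Suz12 were in all 14 strongest lists, Kmt2a in 2 and Eed in 1. Cdx1, Cdx2 and Cdx4, which activate Hox genes in the embryo, had no peak in any list. Among homeobox genes outside the clusters, Msx1 was in 12 strongest lists and Six4 in 9, while Dlx5, Dlx6, Emx1 and Nkx2-1 had none in any list. Of the 12 such genes counted, 6 had a peak in at least 1 strongest list and 8 in at least 1 full list. The 4 without any are 33.3%, against 40.2% of all protein-coding genes.

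Other transcripts of the clusters were read at their start sites too. Hoxa11os, antisense to Hoxa11, was in 12 full lists and 0 strongest lists. Its counts in each group were those of the Hoxa11 promoter, so they are not taken as separate evidence. Hotair, between Hoxc11 and Hoxc12, was in 4 full lists, 3 of them GM +dox. Mir196a-1 was in 1 list, and Hottip, Hoxb5os, Mir10a, Mir10b, Mir196a-2, Mir196b and Mir615 were in none. A peak outside the RNA genes, chr15:102942929-102943690, 6671 bp after the Hoxc12 start site, was in 13 full and 12 strongest lists with ranks from 4668 to 15643.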

How the data were processed

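ATAC-seq reads of 16 libraries were processed by the authors with an nf-core pipeline on mm10, with blacklisted regions removed and narrow peaks called by MACS2 in each library separately. The deposited peak lists give, for each peak, a score, a fold enrichment (a ratio to background), a −log10 p and a −log10 q, and the lowest −log10 q was 1.3. Read counts were not used here, so depth was read from list length and from the background coverage that the fold enrichments and p-values imply (whole pileups within a tolerance of 0.01 for at least 99.7% of the solved peaks).

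Groups came from the labels. None of the 120 pairs of lists were identical. Peaks were assigned to windows by summit and to start sites of GENCODE M21 by overlap, overlapping peaks were merged into regions, and strongest lists were made by keeping the top peaks of each library by −log10 p up to the length of the shortest kept list. Numbers per library were compared between groups by two-sided exact permutation tests with Benjamini-Hochberg adjustment over 4 comparisons, and between clusters by exact sign-flip tests over the 14 libraries. These p-values measure the spread between libraries labelled as biological replicates. The tests were tested on simulated data. Python 3.11.15, numpy 2.4.6, pandas 2.3.3 and scipy 1.17.1 were used.

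The members and lists were chosen with earlier results of these data known. Genes were named by a rule: all Hox genes were counted, and per cluster those with a promoter peak in all or in none of the lists, the region with the best median rank, and up to 3 all-or-none regions per comparison (or 2 regions with the largest difference in share) were named, together with the listed cofactors, regulators, RNA genes and homeobox genes. The other regions named were chosen after their values were seen. The comparison of ranks at regions found in every list, also within pairs, the counts of promoters without replicate 1 of the GM groups, and the alternatives for the interaction of doxycycline and medium were added after the data were seen. Replicate numbers were checked for pairing by the correlation of same-numbered deviations from the group means, which was 0.102 to 0.286 for differentiation with doxycycline, where every pair exceeded 0.1, and fell to 0.0855, 0.0766 and 0.0456 at the lowest in the other 3 comparisons. Alternatives were strongest lists cut to 50%, all deposited peaks, ranking by fold enrichment, windows without flanks, other promoter widths, a −log10 q of at least 5, all 16 libraries, the replicate block and leaving out each library. A few of the genes counted and 1 sequence are not reported by name here.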

Additional observations from a re-analysis of the deposited data

Results flagged for a closer look

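Among the 23 groups of 4 libraries tested for a single value far from the rest, 3 held one. A chance rate of about 1 in 20 does not carry over to these 3, where the other libraries had equal small counts. In GM no dox replicate 1 the strongest list held 2 HoxB peaks, against 1 in each of the other 3 libraries. The same library held 1 HoxD peak, against 0 in the others. It has the shortest list of the 14, so its strongest list is its full list. In GM no dox replicate 2 the strongest list held 7 HoxC peaks, against 6 in each of the others. Each of these stands 1 peak away from the rest of its group.

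DM +dox replicate 1, which enters no comparison, held 13 Hox peaks in its list of 14236, above the 12 of the highest DM no dox library in the strongest lists.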

How the results depend on the processing

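Of 376 values recomputed under alternatives, 324 neither reversed nor changed their side of the threshold (counts stayed within 1.5 times), though 9 of these came to 0 from a value that was not 0; 36 reversed, 6 were no longer past the threshold and 10 counts moved; the causes were not tested. None of the group differences passed the threshold to begin with. For Hox peaks in the strongest lists, the reversed differences were 0.5 for doxycycline in GM within replicate numbers 3 and 4; 0.333 with lists cut to 50%, 0.141 as percent of bases and 2.75 with all 16 libraries for doxycycline in DM; and -0.5 for differentiation with doxycycline within numbers 3 and 4. Leaving out 1 library gave -1.5 to 0.667 for doxycycline in DM, -1.5 to 0.5 for differentiation without and -1.0 to 1.0 with doxycycline.

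For the full lists (log2), differentiation without doxycycline was -0.831 with all 16 libraries and -0.113 within numbers 1 and 2 (leaving out 1 library, -0.211 to 0.458), and with doxycycline -0.137 per 10000 peaks, -0.0241 without flanks, -0.41 with all 16 libraries and -0.21 within numbers 1 and 2 (-0.0693 to 0.145). For promoters, doxycycline in GM gave 3.0 with all deposited peaks (-1.58 to 0.417), doxycycline in DM -1.0 by fold enrichment (-0.167 to 1.83), and differentiation without doxycycline -1.0 with 500 bp, -0.0833 with 2500 bp, -1.5 with all 16 libraries and -1.0 within numbers 3 and 4 (-0.75 to 1.25).

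With the replicate block, differentiation with doxycycline, where the numbers met the pairing criterion, was -0.667 Hox peaks in the strongest lists. Differentiation without doxycycline was -0.208 in the full lists and -0.667 promoters under the block. Differentiation without doxycycline came to 0 Hox peaks in the strongest lists from -0.5. Among the other differences in mean the block changed no direction, and it changed no call; 3 pairs cannot go below an exact p of 0.25, nor 4 pairs below 0.125.

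Among densities, HoxA against HoxB was -0.304 with lists cut to 50% and 0.0351 by fold enrichment, HoxA against HoxC -0.28 with all deposited peaks, HoxA against HoxD 0.0348 with lists cut to 50%, HoxB against HoxD 0.0 without flanks, and the Hox windows against the rest 0.0586 with lists cut to 50% and 0.0131 by fold enrichment. All-or-none Hox regions numbered 1 for doxycycline in GM, 4 for doxycycline in DM and 1 for differentiation with doxycycline with all deposited peaks. In the strongest lists they were 0 to 2 for doxycycline in DM on leaving out 1 library (2 without DM +dox replicate 3) and 0 to 1 for differentiation without doxycycline (1 without GM no dox replicate 4). By fold enrichment, regions with ranks free of overlap were 3 for doxycycline in DM, 1 of them shared with the ranking by p, and 1 in each comparison of media. No genome-wide share stands beside these counts. Read within pairs, differentiation with doxycycline gave 2 regions that moved one way. Promoters in every strongest list were 0 to 1 on leaving out 1 library (1 without GM +dox replicate 1) and 3 without replicate 1 of both GM groups.

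The lists hold peaks only, and signal below each library's own threshold is not in them. Each comparison has 3 or 4 libraries a group.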
